A study of Oryza sativa Japonica Group with 24 samples.

Results

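The first 20 Mb of rice chromosome 4 held 2968 of the 57668 features listed in the series, and 661 of them (22.3%) were expressed. Members were features that start before base 20000000 and reach a mean of at least 1 FPKM over the 12 root libraries or over the 12 shoot libraries. FPKM is the number of sequenced fragments per kilobase of gene, scaled by the authors to the depth of each library. Of the 661 genes, 544 reached that level in roots and 516 in shoots, and 399 reached it in both. The stretch was singled out because genes that differ between spx4 and wild type were seen to gather there, so those differences, and the limma calls that count them, are given below as a description and support nothing.

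Each library came from the pooled roots or the pooled shoots of 3 Japonica rice seedlings, which the labels call Japanese rice. The treatments started at 7 days of age and lasted 2 weeks. The spx4 group carried a T-DNA in the SPX4 gene and grew with 200 µM phosphate (Pi, high Pi). The bHLH6-OV group overexpressed the transcription factor gene bHLH6 and also grew with 200 µM Pi. The low Pi group was wild type (WT) with 10 µM Pi, and the WT group at 200 µM Pi (WT high Pi) was the one all others were set against. Every group had 3 libraries of roots and 3 of shoots, 24 in all. The labels name 1 overexpressing genotype and 1 mutant genotype, without the promoter, the number of lines or any crosses to WT.

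The short arm and the region around the centromere of rice chromosome 4 are known as largely heterochromatic and rich in transposable elements, while most active genes lie on the long arm. Receptor-like kinase genes and NB-ARC genes, which code for plasma membrane receptors and for intracellular immune receptors, often stand in tandem clusters in such plant genomes. SPX4 is a small protein that binds the Pi starvation regulator PHR2 when Pi is ample. The bHLH6 gene, also known as RERJ1, responds to jasmonate and lies within the stretch, as does the gene cluster for momilactones, the diterpenoid phytoalexins of rice.

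The libraries held 20971026 to 29645159 reads in genes. SPX4 itself lies on chromosome 3 (LOC_Os03g61200) and stood at 6.21 ± 0.863 FPKM in spx4 roots, against 11.3 ± 0.193 FPKM in WT high Pi roots (SD, n = 3 each). Its shoot mean was 7.67 ± 0.89 FPKM in spx4 and 13.8 ± 1.61 FPKM in WT high Pi (SD, n = 3 each). Transcript was thus lower in spx4 and not absent. The tissue labels matched their markers: the root-specific RCc3 gene read 1200 to 2440 FPKM in roots and at most 0.552 FPKM in shoots, and 4 Rubisco small chain genes summed to 21.4 to 158 FPKM in roots and at least 4000 FPKM in shoots. Replicate 1 of the WT low Pi shoots stood apart from the other replicates of its group. The labels do not say whether the pools of a group were grown apart, so p-values measure the spread between these pools. In such bulk samples, fewer cells of a type and less RNA per cell cannot be told apart.

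Expressed genes were sparse in the stretch. There were 33.1 of them per Mb, against 98.8 per Mb over the rest of chromosome 4, where 1531 of 2520 features (60.8%) were expressed. The descriptions of 12.6% of its listed features carry words for reverse transcriptase or ribonuclease H, which are parts of retroelements, against 4.37% over the rest of the chromosome and 7.47% over all features. No description was given for 362 of the 661 members (54.8%), and 53 (8.02%) were transcripts outside the annotation, against 3.84% over all expressed features. Those transcripts are given below by their position.

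In roots, 81 of 544 tested members (14.9%) were called between spx4 and WT high Pi, which means a limma adjusted p under 0.05 over all 22090 genes tested. The background over all genes was 2.46%. Of the 81, 20 were higher in spx4 and 61 lower, where the backgrounds over all genes were 0.634% and 1.82%. In shoots, 64 of 516 members (12.4%) were called, 13 higher and 51 lower in spx4, where the background over 19990 genes was 2.14%, with 0.725% higher and 1.42% lower. Since the stretch was chosen for these differences, nothing is read from the shares. Fold changes are of log2(FPKM + 1), which understates the change of genes with low levels. Of the called members 54 in roots and 53 in shoots differed at least 2-fold on that scale, where 1.03% and 1.08% of all genes were both called and at least 2-fold different. Their median log2 fold change was -1.01 in roots and -1.39 in shoots. With genes at 0 reads in a group set to the smallest fold that 3 reads per library would allow, the medians were -1.01 and -1.85.

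Over the 544 and 516 tested members, most genes lay near 0: the median size of the log2 fold change was 0.13 in roots and 0.16 in shoots, against 0.097 and 0.13 over all genes. Called members can be set beside the others by length, level and description. Their median length was 1370 bases, against 1570 bases for members called in neither tissue, and 55.2% of them had no description, against 54.7%. Their median level in WT high Pi was 2.87 FPKM in roots and 2.74 FPKM in shoots, against 4.53 and 4.14 FPKM for the others. Of the 116 members called in at least 1 tissue, 14 were transcripts outside the annotation.

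**Figure D1:**
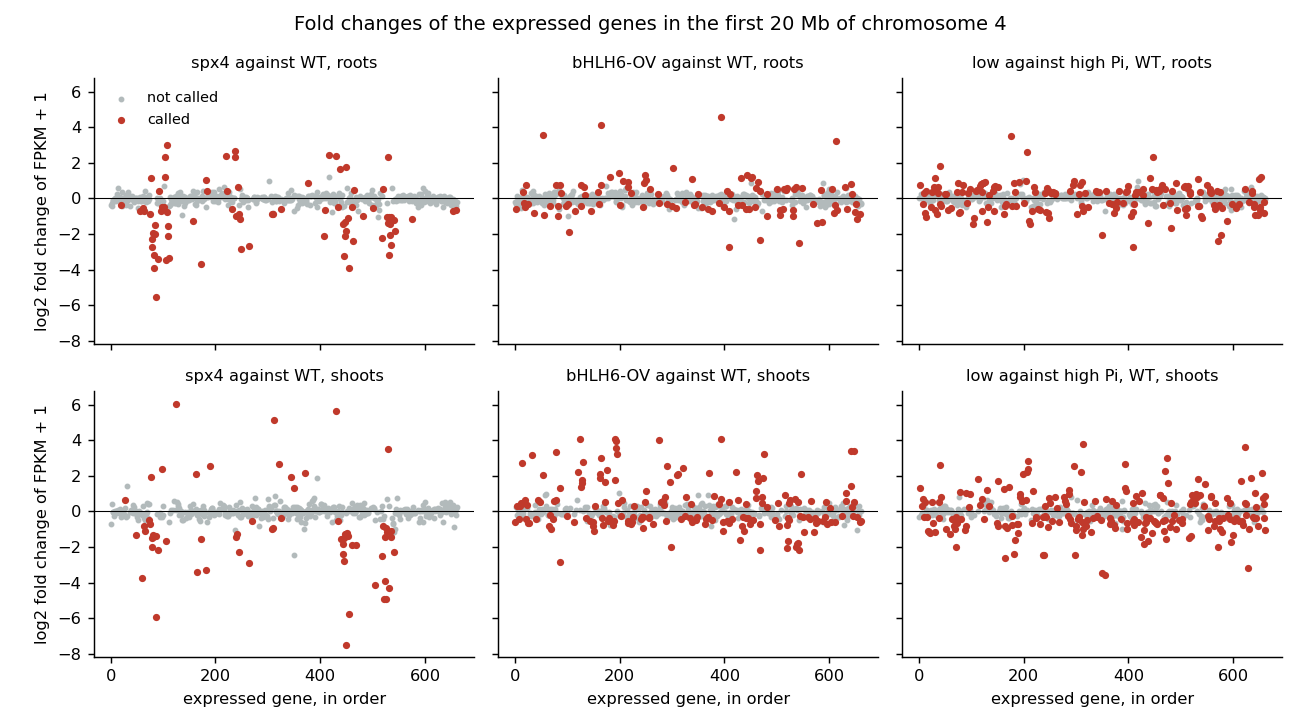
Log2 fold change of FPKM + 1 of each of the 661 members, in their order along chromosome 4, in roots (top) and shoots (bottom); red dots are genes with a limma adjusted p under 0.05 and grey dots all others tested. Between spx4 and WT the red dots form separate groups that reach below -4, while bHLH6-OV and low Pi have red dots along the whole stretch.

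The called members were not spread evenly. Windows of 1 Mb with at least 10 tested genes numbered 377 over the genome in roots, and in 7 of them at least 25% of the genes were called. Of these 7, 5 lay in the stretch, which held 19 of the 377 windows. They reached 50% between 15 and 16 Mb, 46.9% between 1 and 2 Mb and 45.5% between 17 and 18 Mb. Lower were 40.9% between 2 and 3 Mb and 25% between 6 and 7 Mb. Outside the stretch were a window of chromosome 11 between 6 and 7 Mb (35.0%) and a window of chromosome 7 between 21 and 22 Mb (26.9%). In shoots, 5 of 375 windows reached 25%, and 4 of them lay in the stretch, which held 18 of the 375. They were 55.0% between 17 and 18 Mb, 46.2% between 15 and 16 Mb, 43.3% between 1 and 2 Mb and 30.4% between 14 and 15 Mb. The other was the same window of chromosome 7 (27.1%). The windows listed in the stretch rest on 13 to 32 tested genes, and windows of chromosome 4 past 20 Mb on 45 to 115. A single gene thus moves the shares in the stretch more. From 7 to 8 Mb, 5 of 21 genes (23.8%) were called in roots and 2 of 25 (8%) in shoots. From 8 to 14 Mb, 7 of 113 genes (6.19%) were called in roots and 9 of 132 (6.82%) in shoots. From 18 to 20 Mb it was 6 of 113 (5.31%) and 2 of 99 (2.02%). In the first 1 Mb there were 3 of 56 (5.36%) in roots and 3 of 47 (6.38%) in shoots. Except for 18 to 20 Mb in shoots, these shares too lay above the 2.46% in roots and 2.14% in shoots over all genes.

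**Figure D2:**
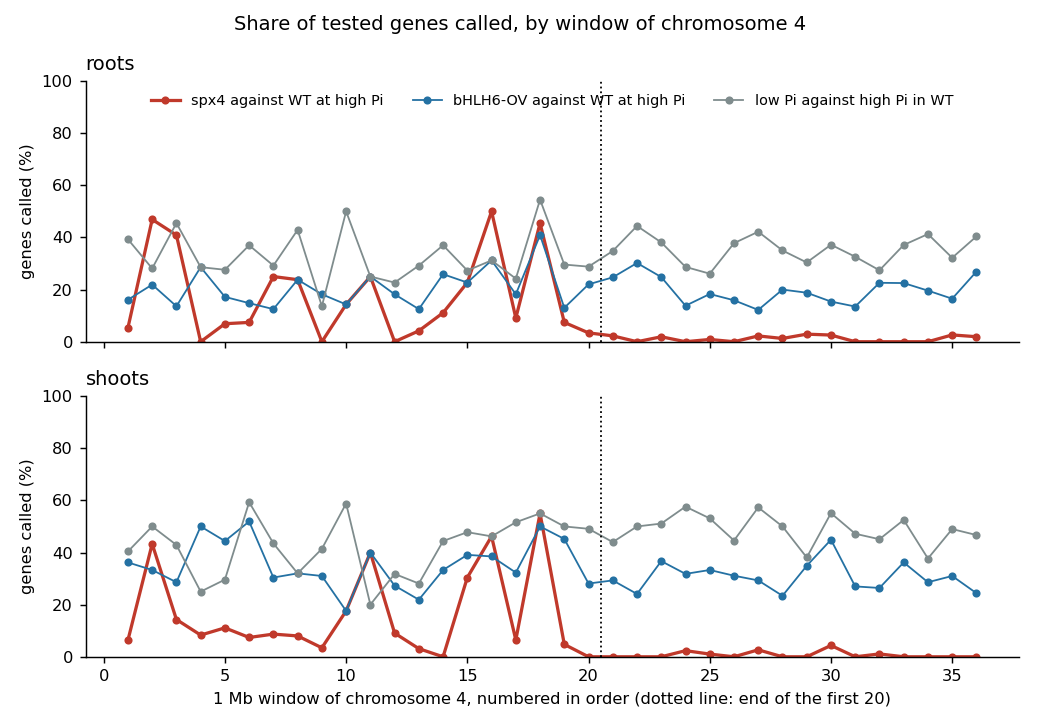
Share of tested genes with a limma adjusted p under 0.05 in each 1 Mb window of chromosome 4, for spx4 against WT (red), bHLH6-OV against WT (blue) and low against high Pi in WT (grey), in roots and shoots. The red line has peaks of 46.9%, 50% and 45.5% in roots and at most 2.9% in roots and 4.35% in shoots in any window past 20 Mb; the window from 10 to 11 Mb rests on 4 tested genes in roots and 5 in shoots.

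The first patch held a run of 13 members from 1320596 to 1792971 on chromosome 4 (chr4:1320596-1792971), bounds that were set after the values were seen. Of the 13, 11 were called lower in spx4 in at least 1 tissue, 10 stayed under 0.1 FPKM in all 6 spx4 libraries, and 7 had no read in any of them. Its leading gene was LOC_Os04g03796 (chr4:1702003-1710519, plus strand), described as a peptidase of the S8/S53 type, the family of subtilisin-like serine proteases. In roots it read 0.0226, 0 and 0.00711 FPKM in spx4, 90.3, 72.5 and 72.3 FPKM in bHLH6-OV, 33.8, 51.7 and 43.8 FPKM in WT low Pi and 35.7, 48.7 and 52.6 FPKM in WT high Pi. In shoots it read 0.0164, 0 and 0.0589 FPKM in spx4, 8.84, 7.96 and 6.88 FPKM in bHLH6-OV, 51.8, 23.7 and 21.9 FPKM in WT low Pi and 58, 77.3 and 53.3 FPKM in WT high Pi. The spx4 libraries were near 0 in both tissues and far from those of any other group, and the log2 fold change against WT was -5.51 in roots and -5.94 in shoots. The same gene moved in opposite directions in bHLH6-OV, where its log2 fold change was 0.78 ± 0.16 (SE) in roots (limma adjusted p = 0.00833) and -2.83 ± 0.26 in shoots (limma adjusted p = 2.12e-05).

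A neighbour in the run, LOC_Os04g03579 (chr4:1562252-1572698, minus strand), codes for a protein with a legume lectin domain, which binds sugars. In roots it read 13.2, 15.9 and 13.9 FPKM in spx4, 197, 159 and 175 FPKM in bHLH6-OV, 326, 279 and 315 FPKM in WT low Pi and 243, 229 and 225 FPKM in WT high Pi. All 3 spx4 libraries lay far below every other library, at 14.3 ± 1.38 FPKM against 233 ± 9.5 FPKM in WT high Pi (SD, n = 3 each), but the transcript was not absent. In shoots every library of every group was at or under 0.168 FPKM. The other members of the run that were called had no description. Near its end, LOC_Os04g03870, a cytochrome P450 gene chosen after its values were seen, read 8.7 FPKM on average in spx4 roots, 13.4 FPKM in bHLH6-OV roots, 9.77 FPKM in WT low Pi roots and 10.6 FPKM in WT high Pi roots, and was not called in spx4. Genes near 0 in spx4 and genes that were not called thus stood side by side.

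Close to the run lay genes that were higher in spx4. LOC_Os04g02980 (chr4:1209884-1219026), another S8/S53 peptidase gene, read 7.95, 5.26 and 3.96 FPKM in spx4 roots and 1.78, 1.69 and 2.45 FPKM in WT high Pi roots, and the groups did not overlap. The call was lost without WT high Pi root replicate 1 or 2, where the log2 fold change was 1.1 and 1.07. LOC_Os04g03050, a further gene of that type, chosen after its values were seen, read 7.05, 3.66 and 1.49 FPKM in spx4 shoots, against 0.267, 0.0956 and 0.282 FPKM in WT high Pi shoots. Subtilase-type genes thus differed in both directions within this patch.

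From 2 to 3 Mb the called genes were seen mostly in roots, where 22 genes were tested, against 7 in shoots. LOC_Os04g04390 (chr4:2071049-2084671) is described as a Pif1-like DNA helicase, an enzyme type that unwinds DNA. It read 0.0166, 0.00506 and 0 FPKM in spx4 roots, 12.9, 12.2 and 8.83 FPKM in bHLH6-OV roots, 3.09, 5.36 and 4.64 FPKM in WT low Pi roots and 9.77, 10.4 and 10.6 FPKM in WT high Pi roots. The kinase gene LOC_Os04g04800 (chr4:2300779-2302759) had no read in spx4 roots, against 9.28, 9.83 and 8.84 FPKM in WT high Pi roots, which makes it at least 117-fold lower against 3 reads per library. It read 11.5 to 14.3 FPKM in bHLH6-OV roots and 9.1 to 17.9 FPKM in WT low Pi roots, and nothing above 0.0431 FPKM in any shoot library. Beside it, an unannotated transcript (chr4:2287624-2289176) showed the reverse: 6.94, 9.83 and 5.13 FPKM in spx4 roots and no read in WT high Pi roots, at least 44.4-fold higher in spx4.

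From 3 to 6 Mb, 4 of 70 genes (5.71%) were called in roots, 2 higher and 2 lower in spx4. In shoots it was 6 of 66 (9.09%), 3 higher and 3 lower. From 6 to 8 Mb, 11 of 45 genes (24.4%) were called in roots, 5 higher and 6 lower, and 4 of 48 (8.33%) in shoots, all lower. The backgrounds over all genes were 2.46% in roots and 2.14% in shoots. LOC_Os04g12600 (chr4:6976835-6979249), a kinase gene, had no read in spx4 in either tissue and read 1.98, 2.02 and 1.51 FPKM in bHLH6-OV shoots and 1.64, 1.33 and 1.19 FPKM in WT high Pi shoots. LOC_Os04g12830 (chr4:7084934-7088113), an NB-ARC gene, read 0.189, 0.954 and 1.05 FPKM in spx4 shoots and 7.14, 9.15 and 5.9 FPKM in WT high Pi shoots. LOC_Os04g13140 (chr4:7250358-7251846) codes for a papain-type peptidase, a cysteine protease. It read 0.686, 0.451 and 0.404 FPKM in spx4 roots, 25.2, 26.1 and 27.8 FPKM in bHLH6-OV roots, 2.6, 5.7 and 4.24 FPKM in WT low Pi roots and 10.2, 9.03 and 10.2 FPKM in WT high Pi roots. The NB-ARC gene and the papain-type gene were chosen after their values were seen, and in each of these genes the spx4 libraries lay below all WT high Pi libraries. LOC_Os04g12499 (chr4:6913245-6916224), with no description, went the other way in roots, where it read 4.29, 6.81 and 8.59 FPKM in spx4 and at most 0.238 FPKM in WT high Pi. In shoots it averaged 11.3 ± 2.22 FPKM in spx4 and 11.7 ± 1.98 FPKM in WT high Pi (SD, n = 3 each).

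The patch from 14 to 16 Mb held a run of 12 members from 14863453 to 15516253, with bounds again set after the values were seen. In it 11 were called, 10 of them lower in spx4, and 4 had no read in any of the 6 spx4 libraries. LOC_Os04g26320 (chr4:15342548-15345795, no description) had the largest fold change of all members in shoots on the log2(FPKM + 1) scale. It read 0, 0.0501 and 0 FPKM in spx4 shoots, 106, 108 and 119 FPKM in bHLH6-OV shoots, 130, 117 and 129 FPKM in WT low Pi shoots and 185, 174 and 184 FPKM in WT high Pi shoots, a log2 fold change in spx4 of -7.48. Its root levels were far lower in every group but showed the same order, with 0.03, 0 and 0 FPKM in spx4 and 2.85, 2.33 and 2.67 FPKM in WT high Pi. LOC_Os04g26590 (chr4:15515197-15516253, no description) had no read in all 6 spx4 libraries, against 13.8, 14.9 and 12.5 FPKM in WT high Pi roots and 48, 53.2 and 55.3 FPKM in WT high Pi shoots. These amount to at least 41-fold and 76.8-fold lower.

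The NB-ARC gene LOC_Os04g25900 (chr4:15062899-15069143) of the same run was also without reads in all 6 spx4 libraries. In roots it read 1.94, 2.13 and 1.75 FPKM in bHLH6-OV, 19.8, 20.4 and 21.5 FPKM in WT low Pi and 3.37, 3.24 and 3.44 FPKM in WT high Pi. The 4 groups did not overlap, and the gene rose under low Pi by 2.31 ± 0.07 (SE) on the log2 scale (limma adjusted p = 2.69e-09). LOC_Os04g25990, which codes for a subunit of a tRNA methyltransferase and was chosen after its values were seen, was lower in spx4 but not off: 1.99, 1.9 and 2.03 FPKM in spx4 roots against 6.52, 6.77 and 5.99 FPKM in WT high Pi roots, with 1.92, 2.37 and 1.68 FPKM in spx4 shoots against 5.95, 7.35 and 4.99 FPKM in WT high Pi shoots. Near the start of the patch LOC_Os04g24900 (chr4:14345436-14345794, no description) was higher in spx4 in both tissues. It read 175, 154 and 152 FPKM in spx4 shoots, 1.79, 2.61 and 3.49 FPKM in bHLH6-OV shoots, 1.07, 1.31 and 0.798 FPKM in WT low Pi shoots and 2.53, 1.69 and 2.61 FPKM in WT high Pi shoots. In roots it read 6.28, 6.02 and 3.32 FPKM in spx4 and at most 0.378 FPKM in WT high Pi. Past the run, LOC_Os04g26960 (chr4:15943440-15948394), a terpene synthase gene chosen after its values were seen, stood at 1.21 ± 0.155 FPKM in spx4 roots, against 10.8 ± 2.34 FPKM in WT high Pi roots (SD, n = 3 each).

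**Figure D3:**
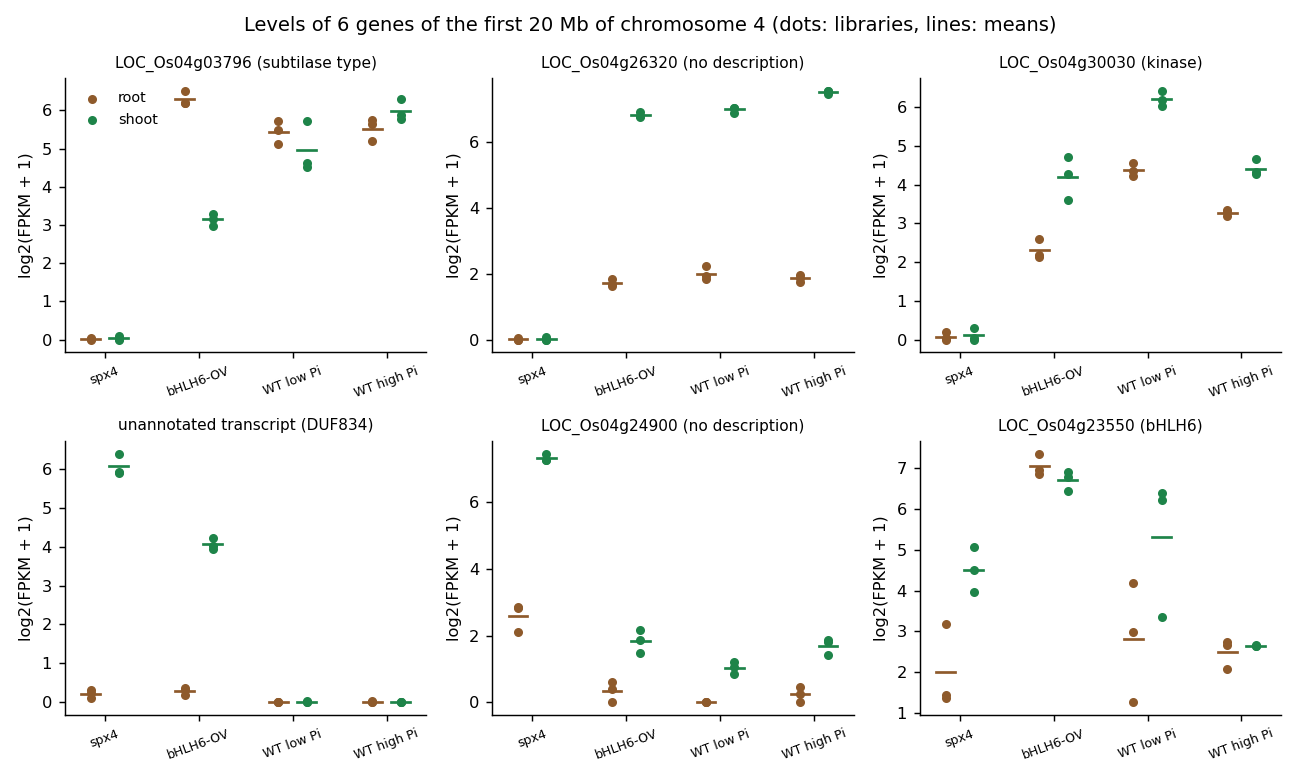
Levels of 6 members as log2(FPKM + 1) in each library (dots) with group means (short lines), roots in brown and shoots in green, for spx4, bHLH6-OV, WT low Pi and WT high Pi; the y axes differ between genes. The top row shows genes near 0 in all 6 spx4 libraries, and the bottom row shows the unannotated transcript at chr4:3178239-3180764 and LOC_Os04g24900, which are high in spx4 shoots, and bHLH6, highest in bHLH6-OV.

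A further patch was a run of 15 members from 17739613 to 18005396, of which 9 are described as kinases, 3 of them as wall-associated receptor kinases, which bind pectin of the cell wall. Its bounds were set after the values were seen. Of the 15, 14 were called, 13 of them lower in spx4, and 9 had no read in any of the 6 spx4 libraries. None was at 0 throughout bHLH6-OV. The run held genes of both tissues. In shoots the wall-associated kinase LOC_Os04g29810 (chr4:17765039-17766782) read 0, 0 and 0 FPKM in spx4, 39.6, 31.5 and 21.4 FPKM in bHLH6-OV, 61.6, 52.8 and 40.8 FPKM in WT low Pi and 30.3, 28.4 and 29.3 FPKM in WT high Pi. Its neighbour LOC_Os04g29790 read 0, 0 and 0 FPKM in spx4 shoots, 11.1, 10.8 and 7.57 FPKM in bHLH6-OV shoots, 29.3, 26.7 and 23.1 FPKM in WT low Pi shoots and 16.6, 14.3 and 11.2 FPKM in WT high Pi shoots. In both, all libraries other than those of spx4 held the transcript, and spx4 was at least 162-fold and 63.5-fold lower than WT high Pi.

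The first gene of the run, LOC_Os04g29770 (chr4:17739613-17741879), has a serine-threonine/tyrosine kinase domain. It read 0, 0 and 0 FPKM in spx4 shoots, 23, 24.1 and 20.8 FPKM in bHLH6-OV shoots, 63.4, 51.8 and 52 FPKM in WT low Pi shoots and 28.9, 30.4 and 28.4 FPKM in WT high Pi shoots. In roots these 3 kinases stayed at or under 2.38 FPKM in every library. Neighbouring kinase genes of a tandem cluster can be alike, so reads may be split between them. Other kinases of the run were read in roots: LOC_Os04g30110 (chr4:17961848-17962684, wall-associated) at 0, 0 and 0 FPKM in spx4, 6.13, 6.28 and 6.18 FPKM in bHLH6-OV, 3.66, 3.92 and 2.99 FPKM in WT low Pi and 5, 5.37 and 4.75 FPKM in WT high Pi. LOC_Os04g30060 had no read in spx4 roots either, against 3.28, 3.13 and 2.96 FPKM in WT high Pi roots, and LOC_Os04g30160 had none in spx4, against 1.38, 0.863 and 0.963 FPKM in WT high Pi roots.

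LOC_Os04g30030 (chr4:17913437-17916778) was read in both tissues. In roots it read 0.15, 0 and 0.0202 FPKM in spx4, 3.39, 3.55 and 5.03 FPKM in bHLH6-OV, 19.3, 22.4 and 17.6 FPKM in WT low Pi and 9.09, 8.13 and 8.78 FPKM in WT high Pi. In shoots it read 0.234, 0.0358 and 0 FPKM in spx4, 25.2, 18.3 and 11.2 FPKM in bHLH6-OV, 64.3, 71.2 and 84.6 FPKM in WT low Pi and 24.1, 18.9 and 18.2 FPKM in WT high Pi. It rose under low Pi by 1.10 ± 0.13 (SE) in roots and 1.8 ± 0.23 in shoots on the log2 scale (limma adjusted p = 8.84e-05 and 8.9e-05). Within the run a single member was higher in spx4: an unannotated transcript (chr4:17896096-17897365) read 3.5, 4.02 and 4.74 FPKM in spx4 roots and 10.5, 10.1 and 11.2 FPKM in spx4 shoots, and had no read in WT high Pi. The kinase gene LOC_Os04g29960, chosen after its values were seen, read 7.82 FPKM on average in spx4 roots and 9.47 FPKM in WT high Pi roots and was not called.

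**Figure D4:**
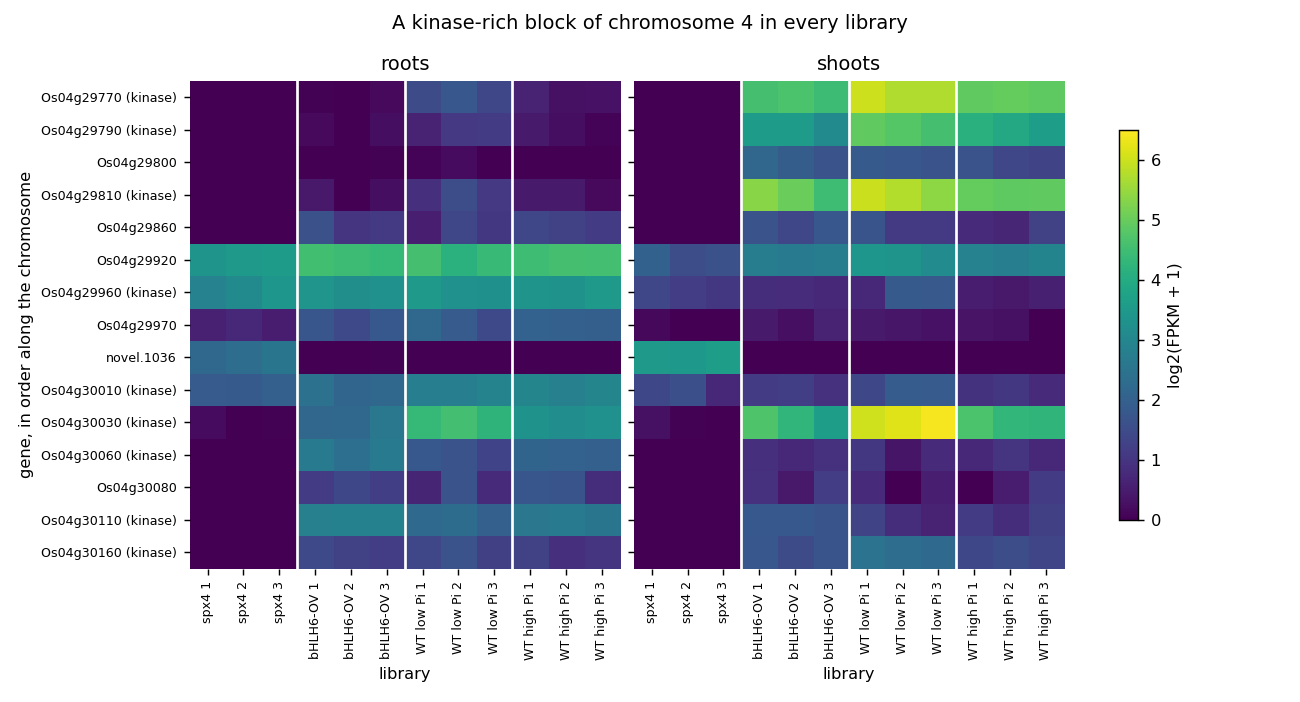
Log2(FPKM + 1) of the 15 members of the run from 17739613 to 18005396 in all 24 libraries, genes in their order along the chromosome, dark for 0 and yellow for the highest level. The spx4 columns are dark for 9 genes at 0 reads, which carry signal in bHLH6-OV and WT, and 1 unannotated transcript is lit in the spx4 columns and at or under 0.0235 FPKM in all others.

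Some members had no read in spx4 at all. Of 524 members with a mean of at least 1 FPKM in WT high Pi roots, 19 (3.63%) had 0 reads in all 3 spx4 root libraries. The background over all genes at that level in WT high Pi roots, without the further rule for members, was 0.16% (35 of 21810). In shoots there were 21 of 478 (4.39%), with a background of 0.248% (48 of 19355). Over the rest of chromosome 4 there was none among 1389 genes in roots and 1178 in shoots. Together these were 28 members, 12 of them off in both tissues, and 27 had no read in any of the 6 spx4 libraries. A count of 0 in each of the 3 libraries allows up to 3 reads per library. Against that limit the spx4 levels were lower by at least 4.86-fold to 214-fold in roots and 4.5-fold to 197-fold in shoots. The stretch was chosen by these spx4 and WT values, so no support is drawn from the counts of members at 0.

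The same count made in bHLH6-OV and in low Pi gave other numbers. None of the 524 and 478 members had lost all reads in bHLH6-OV, where the backgrounds were 0.00459% in roots and 0.0362% in shoots, and none had under low Pi, where they were 0.00917% and 0.0413%. All 40 cases of a member off in a tissue of spx4 had reads in that tissue in bHLH6-OV and in low Pi. This was partly given in advance. The level rule averages over 12 libraries, among them the spx4 libraries at 0. A member low in WT high Pi thus passed it mainly through bHLH6-OV or low Pi, or through the other tissue. Nothing is read from these 40 cases. The gain of reads where WT high Pi had none was found for 0 of 535 members in bHLH6-OV roots (background 0.38%) and 4 of 495 in bHLH6-OV shoots (0.808%, background 0.578%). Under low Pi it was found for 0 of 517 in roots and 0 of 478 in shoots, with backgrounds of 0.0322% and 0.147%. The backgrounds count every gene at that level in the group, without the rule over 12 libraries that members passed. A gene on in 1 group alone can thus count in a background and not among members. The gains of members are therefore undercounted against their backgrounds, and nothing is read from them. These comparisons share the WT high Pi libraries. A like count could be made among 2307 features of the stretch that stayed under 1 FPKM and that the rule left out. Of 137 of them with at least 30 reads over the 6 WT high Pi libraries, 13 (9.49%) had no read in any of the 6 spx4 libraries, 0 in bHLH6-OV and 0 in low Pi. Over the rest of chromosome 4 there were 0 of 143 in spx4, and over all chromosomes 36 of 3300 (1.09%). These features lie in the stretch chosen by the same spx4 and WT libraries, so this count is a description too and supports nothing.

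Of the 28 members, 18 had no description. The 10 others were the kinases LOC_Os04g04800, LOC_Os04g12600, LOC_Os04g29770, LOC_Os04g30060 and LOC_Os04g30160, the wall-associated kinases LOC_Os04g29790, LOC_Os04g29810 and LOC_Os04g30110, the NB-ARC gene LOC_Os04g25900 and LOC_Os04g29800 (chr4:17758605-17762287). LOC_Os04g29800 is described as a reverse transcriptase, the enzyme by which retroelements copy RNA into DNA, and read 3.46, 2.77 and 2.14 FPKM in bHLH6-OV shoots and 2.18, 1.61 and 1.5 FPKM in WT high Pi shoots.

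The reverse case was rarer. A mean of at least 1 FPKM in spx4 with no read in WT high Pi was found for 4 of 501 members in roots (0.798%, background 0.142%) and 2 of 457 in shoots (0.438%, background 0.201%), 5 members in all. The rule on levels uses all 12 libraries of a tissue. A gene on in spx4 alone thus passed it only at a level well above 1 FPKM. The backgrounds were counted without that rule, and no support is drawn from these counts. The strongest was a transcript outside the annotation (chr4:3178239-3180764) with a domain of unknown function. It read 59.2, 58.2 and 83 FPKM in spx4 shoots, 15.3, 14.3 and 17.6 FPKM in bHLH6-OV shoots, 0, 0.0235 and 0 FPKM in WT low Pi shoots and no read in WT high Pi shoots. It was thus at least 1080-fold higher in spx4 and was also on in bHLH6-OV.

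That pattern, on in spx4 and in bHLH6-OV and at or near 0 in both WT groups, was seen in other members, which were chosen after their values were seen. LOC_Os04g18770 (chr4:10435610-10440943), with a ribonuclease H-like domain, read 6.37, 4.51 and 5.44 FPKM in spx4 shoots, 5.47, 4.17 and 3.99 FPKM in bHLH6-OV shoots, 0, 0 and 0 FPKM in WT low Pi shoots and 0, 0 and 0.0199 FPKM in WT high Pi shoots. Roots had lower levels, with 1.13 ± 0.0543 FPKM in spx4, 1.21 ± 0.291 in bHLH6-OV, 0.00499 ± 0.00432 in WT low Pi and 0.013 ± 0.00932 in WT high Pi (SD, n = 3 each). The unannotated transcript at chr4:4550680-4553142 stood at 3.35 ± 0.645 FPKM in spx4 shoots, 3.42 ± 1.3 in bHLH6-OV shoots, 0.0501 ± 0.0869 in WT low Pi shoots and 0.0152 ± 0.0263 in WT high Pi shoots (SD, n = 3 each). LOC_Os04g22140 (no description) stood at 4.41 ± 0.418 FPKM in spx4 shoots and 4.41 ± 0.685 in bHLH6-OV shoots, against 0 in WT low Pi and 0.211 ± 0.219 in WT high Pi shoots. LOC_Os04g17660 (chr4:9671229-9674147, no description) was higher in both genotypes but low, not off, in WT. It read 180, 143 and 131 FPKM in spx4 shoots, 13.5, 18.2 and 21.2 FPKM in bHLH6-OV shoots, 1.89, 1.96 and 1.66 FPKM in WT low Pi shoots and 3.33, 2.6 and 3.93 FPKM in WT high Pi shoots, while its roots averaged 2.59 ± 0.594 FPKM in spx4 and 2.54 ± 0.166 in WT high Pi (SD, n = 3 each).

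A few genes with a known type of product were moderately higher in spx4. LOC_Os04g21110 (chr4:11869125-11887514), a member of the phosphoribulokinase and uridine kinase family, read 27.5, 23.2 and 25 FPKM in spx4 shoots and 10, 9.51 and 9.09 FPKM in WT high Pi shoots, with 8.53, 8.14 and 9.24 FPKM in bHLH6-OV shoots. LOC_Os04g09590 (chr4:5152089-5153384), described as a transferase, read 7.76, 7.67 and 6.99 FPKM in spx4 roots and 2.94, 3.16 and 3.18 FPKM in WT high Pi roots. LOC_Os04g29580 (chr4:17584989-17589754), a kinase gene, read 13.6, 13.8 and 13.3 FPKM in spx4 roots and 9.12, 9.52 and 8.84 FPKM in WT high Pi roots, a call that ended when any 1 of these 6 libraries was left out (log2 fold change 0.5 to 0.55) and with the replicate number as a block (0.52). LOC_Os04g01650, a gene of the D-isomer specific 2-hydroxyacid dehydrogenase family, read 5.32, 4.58 and 6.51 FPKM in spx4 shoots and 2.71, 3.53 and 2.95 FPKM in WT high Pi shoots, a call that ended under 14 of 21 other settings (log2 fold change 0.55 to 0.81). None of these had spx4 libraries that overlapped with those of WT high Pi in the tissue named.

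The effect of spx4 in the 2 tissues was set side by side as the root effect minus the shoot effect over all 24 libraries. This difference is built from the same spx4 and WT values by which the stretch was chosen, so its calls are a description and nothing is read from their share. Of the 661 members, 80 were called (12.1%, limma adjusted p under 0.05), where the background was 1.98% over 24643 genes. The difference was positive for 39 (background 0.828%) and negative for 41 (background 1.16%), and 75 of the 80 were among the 116 members called for spx4 in at least 1 tissue. With limma voom on read numbers rebuilt from the FPKM, 39 members were called in place of 80. Of the 116, 54 were called in 1 tissue and were under the tested level in the other. What this adds to the differences between tissues was not tested. Where both tissues were tested, 29 members were called in both, 27 lower in both and 2 higher in both, and none in opposite directions. A further 22 were called in roots alone and 11 in shoots alone.

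The members with the largest difference were mostly genes with higher levels in 1 tissue. The transcript at chr4:3178239-3180764 (-5.86 ± 0.15 SE) and LOC_Os04g17660 (-5.14 ± 0.22) were higher in spx4 in shoots. The lectin gene LOC_Os04g03579 (-3.92 ± 0.12 SE) and the kinase gene LOC_Os04g04800 (-3.35 ± 0.20) were lower in spx4 in roots and hardly read in shoots. LOC_Os04g26320 (5.65 ± 0.13) and the kinases LOC_Os04g29810 (4.55 ± 0.26), LOC_Os04g29770 (4.49 ± 0.15) and LOC_Os04g29790 (3.63 ± 0.22) fell more in shoots on the log2(FPKM + 1) scale. That scale understates changes at low levels, and these genes were low in the roots of every group. LOC_Os04g26320 was nearly without reads in spx4 in both tissues. With voom the calls of LOC_Os04g03579 and LOC_Os04g29810 were lost, with differences of -3.48 and 5.82. LOC_Os04g03796, which was lower in spx4 in both tissues, had a difference of 0.43 ± 0.33 and was not called.

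By limma calls, overexpression of bHLH6 changed members of the stretch at about the rate of other genes. Changes of at least 2-fold on the log2(FPKM + 1) scale were also counted, called or not. They were seen in 4.23% of tested members in roots against 3.2% of all genes, and in 11.2% against 7.67% in shoots. The shoot share includes bHLH6 itself and momilactone genes that reached the tested level only through bHLH6-OV. These shares were not tested against each other, and nothing is read from them. In roots 106 of 544 members were called (19.5%), 50 higher and 56 lower, where the background was 18%, with 7.62% higher and 10.4% lower. In shoots 181 of 516 were called (35.1%), 85 higher and 96 lower, where the background was 31.3%, with 14% higher and 17.3% lower. With TPM scaling, which moved the median of all genes in this comparison to 0.15 on the log2 scale in shoots, the calls were 57 higher and 42 lower in roots and 116 higher and 38 lower in shoots. Without WT high Pi root replicate 3 the root count was 64. Low against high Pi in WT gave 176 called members in roots (32.4%, background 31.4%), 97 higher and 79 lower, where the backgrounds were 15.3% and 16.1%. In shoots it gave 226 (43.8%, background 48.2%), 91 higher and 135 lower, where the backgrounds were 22.2% and 26.0%. Changes of at least 2-fold, called or not, were seen in 4.6% against 5.51% in roots and in 13.6% against 13.5% in shoots. With TPM scaling the shoot calls were 96 higher and 96 lower, and with limma voom on rebuilt reads 94 higher and 95 lower. Without WT high Pi root replicate 1 or 3 the root count was 114 in each case, and the shoot count was 217 when replicate 1 of the WT low Pi shoots was left out.

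The 81 root members called for spx4 can be set beside the same members in the other comparisons, which share the WT high Pi libraries. These members were picked by their spx4 calls, so a larger change in spx4 than elsewhere was given in advance. Their median log2 fold change was -1.01 in spx4, 0 in bHLH6-OV and 0.02 in low Pi, and the median size of the fold change was 1.3, 0.31 and 0.35. For the 64 shoot members the medians were -1.39 in spx4, 0.01 in bHLH6-OV and 0 in low Pi, and the median sizes 1.8, 0.35 and 0.29. Set directly against bHLH6-OV, 92 root members of the stretch were called in spx4 (16.9%, background 6.58%), 23 higher and 69 lower, where the backgrounds were 3.12% and 3.46%. In shoots it was 216 (41.9%, background 32.0%), 93 higher and 123 lower, where the backgrounds were 18.3% and 13.8%. With TPM scaling, which moved the median of all genes to -0.23, the shoot calls were 36 higher and 192 lower. The spx4 libraries are those by which the stretch was chosen, so this comparison is no independent support. Over the rest of chromosome 4 the shares were 6.32% in roots and 31.7% in shoots.

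The overexpressed gene itself lies within the stretch (bHLH6, LOC_Os04g23550, chr4:13466420-13468869, minus strand). In roots it read 1.68, 1.58 and 8.07 FPKM in spx4, 115, 124 and 164 FPKM in bHLH6-OV, 6.85, 17.2 and 1.39 FPKM in WT low Pi and 5.35, 5.66 and 3.24 FPKM in WT high Pi. In shoots it read 14.5, 21.8 and 32.8 FPKM in spx4, 85.8, 110 and 120 FPKM in bHLH6-OV, 9.25, 83.1 and 73.8 FPKM in WT low Pi and 5.21, 5.22 and 5.29 FPKM in WT high Pi. All bHLH6-OV libraries lay above all others, the first WT low Pi shoot library lay far below the other two, and transcript of the added copy and of the gene's own locus cannot be told apart in these values. Its window from 13 to 14 Mb had 3 of 27 genes (11.1%) called for spx4 in roots and 0 of 27 in shoots, where the backgrounds were 2.46% and 2.14%.

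In bHLH6-OV shoots 5 members of the momilactone cluster near 5 Mb were called higher. They reached the tested level in shoots only through the bHLH6-OV libraries, where they are high. Their calls are thus a description, and no support for a joint rise is drawn from them. CPS4 (LOC_Os04g09900, chr4:5318060-5326427), the diterpene cyclase of the first committed step, read 23.8, 26.6 and 35 FPKM in bHLH6-OV shoots and 0.864, 0.596 and 0.842 FPKM in WT high Pi shoots, a log2 fold change of 4.05 ± 0.39 (SE, limma adjusted p = 2.66e-05). The cytochrome P450 genes CYP99A3 and CYP99A2 rose by 1.74 ± 0.17 and 3.22 ± 0.25 (limma adjusted p = 3.7e-05 and 6.27e-06). The momilactone A synthase gene MAS (LOC_Os04g10010) and the copy beside it (LOC_Os04g10000) rose by 3.55 ± 0.25 and 3.94 ± 0.31 (limma adjusted p = 2.73e-06 and 6.48e-06). These copies are alike, so reads may be split between them. KSL4, the second cyclase of the pathway, was too low to be a member and read 1.3, 3.16 and 4.58 FPKM in bHLH6-OV shoots, against no read in WT high Pi shoots. In spx4 shoots CPS4 read 0.12, 2.39 and 0.0719 FPKM and none of the 5 members was called, while KSL4 was not tested. Under low Pi CYP99A3 and the MAS copy rose in shoots by 0.8 ± 0.17 and 0.99 ± 0.31 (limma adjusted p = 0.00307 and 0.0212). CPS4 rose in low Pi roots by 0.94 ± 0.23 (limma adjusted p = 0.011). Not called under low Pi were CPS4, MAS and CYP99A2 in shoots and CYP99A3, MAS and its copy in roots.

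Other members changed in bHLH6-OV beyond the spread of their libraries. LOC_Os04g24140 (chr4:13802276-13803543), which codes for ribose 5-phosphate isomerase of the pentose phosphate pathway, was lower in roots of all 3 other groups: 23.5, 23 and 46.2 FPKM in spx4, 20, 14.6 and 22.5 FPKM in bHLH6-OV and 15.5, 24.4 and 18 FPKM in WT low Pi, against 151, 115 and 126 FPKM in WT high Pi. It fell by 2.73 ± 0.26 (SE) in bHLH6-OV and by 2.71 ± 0.26 under low Pi on the log2 scale (limma adjusted p = 4.66e-05 and 2.02e-05), comparisons that share the WT high Pi libraries. LOC_Os04g31290 (chr4:18720466-18722735), another bHLH transcription factor gene, also read lower in roots of each group, with 12.8 ± 1.55 FPKM in spx4, 11 ± 1.35 in bHLH6-OV and 6.53 ± 0.949 in WT low Pi, against 30.1 ± 2.24 in WT high Pi (SD, n = 3 each). The terpene synthase gene LOC_Os04g27190 averaged 1.38 ± 0.171 FPKM in bHLH6-OV roots and 10.9 ± 1.71 FPKM in WT high Pi roots (SD, n = 3 each), a log2 fold change of -2.31 ± 0.20 (SE, limma adjusted p = 2.14e-05).

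LOC_Os04g08630 (chr4:4688336-4689496, no description) was on in bHLH6-OV alone in roots, at 18.8, 21.1 and 15.6 FPKM, against at most 0.0676 FPKM in spx4, 0 in WT low Pi and 0.418 FPKM in WT high Pi. In shoots it read 0.322, 0.864 and 0.721 FPKM in spx4, 126, 141 and 134 FPKM in bHLH6-OV, 0.83, 1.89 and 2.95 FPKM in WT low Pi and 28.9, 15.5 and 8.7 FPKM in WT high Pi. It was thus above WT high Pi in bHLH6-OV and below it in spx4 and low Pi, and the 4 groups of shoots did not overlap except for spx4 with WT low Pi. LOC_Os04g14690 (chr4:8243687-8249942), with an FAD/NAD(P)-binding domain found in many oxidoreductases, stood at 18.1 ± 3.82 FPKM in bHLH6-OV shoots and 0.153 ± 0.0402 in WT high Pi shoots (SD, n = 3 each), a rise of 4.03 ± 0.19 (SE, limma adjusted p = 8.46e-08). The kinase gene LOC_Os04g30240, right after the kinase run, stood at 10.3 ± 3.16 FPKM in bHLH6-OV shoots and 42.8 ± 2.37 FPKM in WT high Pi shoots (SD, n = 3 each, limma adjusted p = 8.88e-05), with 33.3 ± 5.17 FPKM in spx4 shoots.

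Low Pi raised the Pi transporter gene PT4 (LOC_Os04g10750, chr4:5846276-5849390), whose product takes up Pi. It read 7.13, 6.08 and 4.95 FPKM in spx4 roots, 10.4, 8.42 and 7.51 FPKM in bHLH6-OV roots, 19.7, 40.7 and 31.2 FPKM in WT low Pi roots and 3.8, 3.94 and 3.9 FPKM in WT high Pi roots. The low Pi libraries lay above all others, and the log2 fold change was 2.63 ± 0.21 in roots and 2.24 ± 0.13 in shoots (SE, limma adjusted p = 6.14e-06 and 2.31e-07). In bHLH6-OV roots it rose by 0.99 ± 0.21 (SE, limma adjusted p = 0.00891), and in spx4 it was not called. LOC_Os04g09390 (chr4:5005077-5006210), with a chitin-binding domain as in defence proteins, read 33.6, 17 and 24.2 FPKM in WT low Pi roots and 1.1, 0.715 and 1.92 FPKM in WT high Pi roots, a rise of 3.51 ± 0.37 (SE, limma adjusted p = 4.38e-05).

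Other members of known type answered low Pi in 1 or both tissues. The Kelch repeat gene LOC_Os04g31120 fell by 2.39 ± 0.15 in roots and by 2.00 ± 0.15 in shoots (SE, limma adjusted p = 9.07e-07 and 2.07e-06). LOC_Os04g21130, an F-box gene of the type that selects proteins for breakdown, fell by 2.05 ± 0.34 in roots (SE, limma adjusted p = 0.000964) and read 0.0756, 0 and 0.0468 FPKM in WT low Pi shoots, against 16.3, 3.53 and 19 FPKM in WT high Pi shoots. Its shoot call was lost with voom (limma voom adjusted p = 0.0634). In shoots LOC_Os04g32320, with a phospholipase C-like domain, rose to 8.51, 16.9 and 20 FPKM under low Pi, against 0.316, 0.0722 and 0.354 FPKM in WT high Pi (log2 fold change 3.62 ± 0.26 SE, limma adjusted p = 1.41e-06). The terpene synthase gene LOC_Os04g27790 rose to 11.3, 11.4 and 6.25 FPKM under low Pi, against 0.235, 0.196 and 0.529 FPKM in WT high Pi (limma adjusted p = 1.55e-05). None of these was called in spx4.

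Grouped by words in their descriptions, genes with the word kinase were the largest described group of the stretch, with 44 members. The word is not limited to protein kinases, here or over all genes. It also takes in LOC_Os04g21110, of the phosphoribulokinase and uridine kinase family, which was called higher in spx4 shoots. For spx4, 10 of 32 tested in roots were called, 1 higher and 9 lower, and 9 of 33 in shoots, 1 higher and 8 lower. Over all genes 38 of 1082 kinases were called in roots and 26 of 948 in shoots. The median log2 fold change of the kinases was 0 in roots and -0.36 in shoots, against 0.01 and 0.03 over all kinases. In bHLH6-OV 9 were called in roots, 5 higher and 4 lower, and 19 in shoots, 5 higher and 14 lower, where TPM scaling gave 5 higher and 6 lower. Over all kinases 239 of 1082 were called in bHLH6-OV roots and 376 of 948 in bHLH6-OV shoots. Under low Pi 12 rose and 7 fell in roots, and 14 rose and 3 fell in shoots. Over all kinases 226 rose and 140 fell of 1082 in roots, and 349 rose and 154 fell of 948 in shoots. The kinases of the run near 18 Mb are among those lower in spx4.

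NB-ARC genes numbered 10. For spx4, 2 of 8 tested in roots and 2 of 5 in shoots were called, all lower, against 14 of 275 and 10 of 201 over all genes of that type. In shoots 1 of them was LOC_Os04g02120 (chr4:692760-695278), chosen after its values were seen, at 0.717, 1.23 and 0.95 FPKM in spx4 and 4.05, 3.97 and 3.81 FPKM in WT high Pi. Of the 9 peptidases and proteases, 3 of 6 in roots were called for spx4, 1 higher and 2 lower, and 2 of 7 in shoots, 1 higher and 1 lower, against 6 of 281 and 3 of 246 over all genes of that type. Of 5 lectin genes, 2 of 4 in roots were called lower, against 4 of 47 over all lectin genes. No F-box gene (5 members), zinc finger gene (6 members) or cytochrome P450 gene (6 members) was called for spx4 in either tissue. At most 5 of each type were tested in a tissue. Over all genes, 4 of 227 F-box genes were called in roots and 4 of 207 in shoots. For zinc finger genes it was 2 of 277 and 4 of 246, and for cytochrome P450 genes 6 of 158 and 6 of 150. Nothing is read from the absence of calls among so few. Transcripts outside the annotation gave 8 of 31 in roots, 3 higher and 5 lower, and 11 of 44 in shoots, 3 higher and 8 lower, against 28 of 645 and 41 of 787 over all such transcripts. Members with no description gave 46 of 291 in roots, 14 higher and 32 lower, and 35 of 283 in shoots, 7 higher and 28 lower, against 282 of 10526 and 232 of 9608 over all genes without one.

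Past 20 Mb the differences were rare. Over the rest of chromosome 4, 16 of 1408 genes (1.14%) were called for spx4 in roots and 9 of 1227 (0.733%) in shoots, against 2.21% and 1.95% on the other chromosomes. The 3 members nearest below the 20 Mb limit were LOC_Os04g32980, an unannotated transcript and LOC_Os04g33030, and the 3 expressed genes nearest above were LOC_Os04g33040, LOC_Os04g33050 and LOC_Os04g33060. Inside the limit, LOC_Os04g32980 stood at 4.46 ± 0.347 FPKM in spx4 roots and 7.54 ± 0.539 in WT high Pi roots (SD, n = 3 each). It was lower still in bHLH6-OV roots (3.56 ± 0.115) and WT low Pi roots (3.84 ± 0.674). The unannotated transcript stood at 92 ± 17.5 FPKM in spx4 roots and 121 ± 5.51 in WT high Pi roots, and LOC_Os04g33030 at 20.2 ± 1.07 and 22.9 ± 1.11 FPKM (SD, n = 3 each). Outside it, LOC_Os04g33040, an alpha-amylase gene, stood at 29.5 ± 0.673 FPKM in spx4 roots and 28.5 ± 1.75 in WT high Pi roots, and LOC_Os04g33060 at 127 ± 7.19 FPKM in spx4 shoots and 113 ± 12.6 in WT high Pi shoots (SD, n = 3 each). With the limit at 15 Mb, 54 of 360 genes (15%) in roots and 43 of 353 (12.2%) in shoots were called. With the limit at 25 Mb, 86 of 1010 (8.51%) and 67 of 916 (7.31%) were called.

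The first 20 Mb of the other chromosomes gave shares for spx4 from 0.847% to 5.68% in roots and from 0.62% to 5.01% in shoots, against 14.9% and 12.4% here. The highest of the others was chromosome 7 in both tissues, followed by chromosome 11 with 5.34% in roots and 4.16% in shoots.

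**Figure D5:**
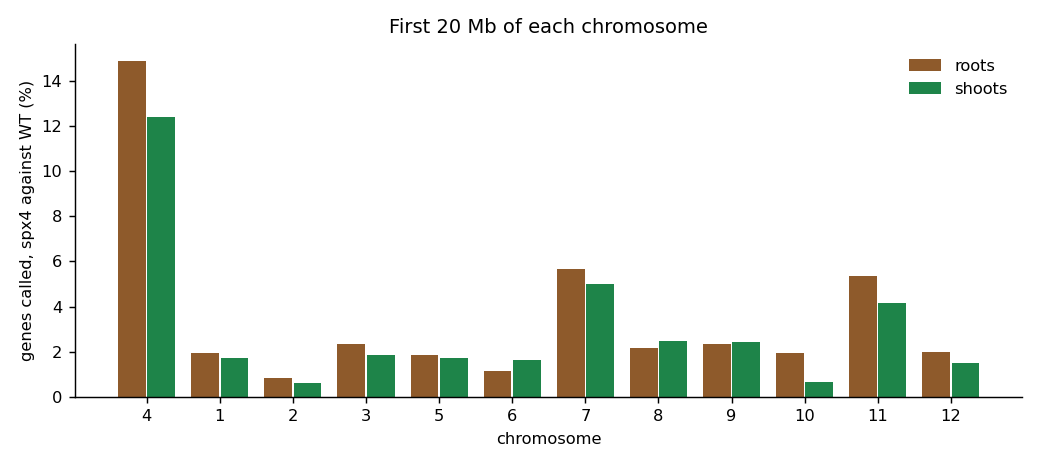
Share of tested genes called between spx4 and WT high Pi (limma adjusted p under 0.05) in the first 20 Mb of each of the 12 chromosomes, roots in brown and shoots in green. Chromosome 4 reaches 14.9% and 12.4%, and the next is chromosome 7 with 5.68% and 5.01%.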

How the data were processed

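RNA was sequenced from 24 libraries, 3 per group and tissue. Per the file headers the authors deposited 1 table of FPKM values per gene with gene positions and descriptions. The submitters' processing notes name HISAT2, StringTie, featureCounts 1.5.0-p3 and DESeq2, without their roles. The genome build is not given in the sources used here, so positions are those of the authors' table and no sequence is printed. The FPKM values step in whole reads within each gene, so read numbers could be rebuilt from them (100% of values came out whole within 0.01 reads), and they were used for depth, for zeros and for the smallest folds that 3 reads per library allow. These limits cover counting error alone.

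Genes that averaged at least 1 FPKM in a tissue's 12 libraries entered tests with limma 3.58.1 (R 4.3.3) on log2(FPKM + 1), with all 4 groups of a tissue in one fit, or all 24 libraries for roots minus shoots. P-values were Benjamini-Hochberg adjusted over all genes tested, and 0.05 was the threshold. Summaries used Python 3.11.15 with pandas 2.3.3 and numpy 2.4.6, and figures matplotlib 3.10.9. The fit was tested on simulated data.

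The members, the description groups and the tests were chosen with earlier results of these data known. Genes were named by rule: bHLH6 and the momilactone loci, the 10 highest and 10 lowest called members with libraries that do not overlap and a mean of at least 5 FPKM (5 and 5 for bHLH6-OV, low Pi and roots minus shoots), members at 0 in all libraries of spx4 or WT, and the 3 genes on either side of 20 Mb. Genes without description were named only among the first 3 by size, and any other is marked in the text. The planned word for chlorophyll-binding proteins matched 0 descriptions, so 4 Rubisco small chain genes were used.

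Same-numbered root libraries of spx4 and bHLH6-OV deviated together (correlations 0.23, 0.29 and 0.48). This pairing comes from the values, not from the labels. In no other comparison did all 3 pairs pass 0.1. Alternatives were another pseudocount, other scalings, other filters, 2-group fits, the replicate block, other variance priors, each library left out and limma voom on rebuilt reads, which was added after the data were seen.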

Additional observations from a re-analysis of the deposited data

Results flagged for a closer look

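For 8 members the effect of spx4 differed between roots and shoots by a limma call of the root effect minus the shoot effect on the log2 scale. The stretch was chosen by the same spx4 and WT values, so these calls are a description. Higher in spx4 mainly in shoots were the unannotated transcript at chr4:3178239-3180764, with a difference of -5.86, and LOC_Os04g17660, with -5.14. Lower in spx4 in roots, and hardly read in shoots, were the lectin gene LOC_Os04g03579, with -3.92, and the kinase gene LOC_Os04g04800, with -3.35. On that scale LOC_Os04g26320 fell more in shoots, with 5.65, but it was nearly without reads in spx4 roots too. The kinase genes LOC_Os04g29810, LOC_Os04g29770 and LOC_Os04g29790, with 4.55, 4.49 and 3.63, also fell more in shoots and were low in the roots of every group.

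In a few genes every library of spx4 or bHLH6-OV lay on one side of WT high Pi in roots and on the other in shoots. The kinase gene LOC_Os04g29580 had log2 fold changes in spx4 of 0.52 in roots and -0.4 in shoots, and the difference of 0.92 was called by limma. LOC_Os04g33030, at the 20 Mb limit, had -0.18 in roots and 0.23 in shoots, and the difference of -0.41 was not called. These calls too are a description. In bHLH6-OV, LOC_Os04g16680, which codes for a fructose-1,6-bisphosphatase type protein, had 1.69 in roots and -0.42 in shoots, LOC_Os04g03796 had 0.78 and -2.83, and LOC_Os04g30240 had 0.67 and -1.99. For these 3 the difference between tissues was not tested.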

How the results depend on the processing

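No named gene result and no total count of members reversed, but TPM scaling or voom turned the balance of higher and lower calls. For bHLH6-OV shoots it was 85 higher and 96 lower as reported, 116 and 38 with TPM and 123 and 39 with voom. For bHLH6-OV roots it was 50 and 56 as reported, 57 and 42 with TPM and 53 and 42 with voom, and for low Pi roots 97 and 79 as reported, 84 and 84 with TPM and 72 and 87 with voom. Of 64 gene results, 58 kept their call under every alternative and 6 lost it under at least 1: LOC_Os04g29580 and LOC_Os04g02980 for spx4 in roots, LOC_Os04g01650 for spx4 in shoots, LOC_Os04g21130 for low Pi in shoots, and LOC_Os04g03579 and LOC_Os04g29810 for roots minus shoots. Called members fell to 64 for bHLH6-OV in roots without WT high Pi root replicate 3, and to 114 for low Pi in roots without WT high Pi root replicate 1 or 3. With limma voom on rebuilt reads, added after the data were seen, roots minus shoots gave 39, spx4 gave 75 in roots and 66 in shoots, bHLH6-OV 95 and 162, low Pi 159 and 189, and spx4 against bHLH6-OV 99 and 234. Leaving out 1 library at a time gave 61 to 83 members for spx4 in roots and 57 to 86 in shoots. It gave 64 to 118 and 132 to 213 for bHLH6-OV, 114 to 181 and 196 to 228 for low Pi, 76 to 103 and 168 to 244 for spx4 against bHLH6-OV, and 66 to 96 for roots minus shoots. With the replicate number as a block the counts were 72 and 66 for spx4, 104 and 175 for bHLH6-OV, 170 and 218 for low Pi, 91 and 206 for spx4 against bHLH6-OV, and 74 for roots minus shoots. Same-numbered spx4 and WT libraries correlated in their deviations by 0.08, 0.02 and 0.02 in roots and 0.12, 0.05 and 0.02 in shoots. Such low correlations do not show what these libraries share beyond that number. The cause of these moves was not tested. With 3 libraries per group and 20971026 to 29645159 reads, genes near 1 FPKM rest on few reads.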
